A study of Mus musculus with 76 samples.

Results

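Transcripts of the peroxisome were followed in liver and visceral white adipose tissue (WAT) of mice that carry either allele of a single base in the 3′ untranslated region of Fnip2. The genes were chosen by name. They were all entries whose symbol starts with Pex and a digit, which are the peroxins that build the organelle, and 38 listed enzymes and transporters of peroxisomal lipid, redox and amino acid metabolism. These rules gave 55 genes among 20295 entries in the tables of both tissues, namely 17 peroxins and 38 enzymes and transporters. A gene was tested in a tissue where its mean normalized count reached 10, which kept 16 peroxins and 32 enzymes in WAT, and 16 peroxins and 38 enzymes in liver.

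The mice were females fed ad libitum, homozygous for the C allele (Fnip2C/C) or the T allele (Fnip2T/T) on a C57BL/6 background. Fnip2C/C mice also carry a base change in the Cas9 recognition motif that was introduced with the edit, so the allele and this second change cannot be told apart. No age was given for these animals in the sources used here. WAT came from 4 Fnip2C/C and 5 Fnip2T/T mice and liver from 5 of each genotype, and 6 mice gave both tissues. The libraries (QuantSeq 3′ mRNA-Seq FWD) read the ends of polyadenylated RNA and were made with 500 ng of RNA per WAT sample and 250 ng per liver sample. The WAT libraries held 4180209 to 6277644 reads and the livers 5583041 to 7523200. Hepatocyte markers summed to 103337 to 134539 CPM (reads scaled to 1000000 per library) in the livers and to 58.5 to 987 in WAT, where 5 of the 12 had no entry in the table. All 12 adipocyte markers were read in every WAT library. Of 15 ovary markers 12 had an entry in WAT. They summed to 6231 CPM in the WAT library of Fnip2C/C mouse 593, against 90.8 to 132 in the other WAT libraries. Counts of changed genes in WAT are therefore also given without this mouse. Fnip2 itself had a mean normalized count of 22.8 ± 6.99 (SD, n = 4) in Fnip2C/C and 28.3 ± 10.5 (SD, n = 5) in Fnip2T/T WAT, with a log2 fold change of -0.27 (95% interval -1.01 to 0.48). In liver it was 155 ± 29.2 against 104 ± 33.2 (SD, n = 5 each), a log2 fold change of 0.63 ± 0.23 (SE) that did not pass after adjustment over all genes (limma, adjusted p = 1.00). Such counts do not show which base a transcript carries and so cannot check the genotype labels.

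Peroxisomes are organelles bounded by a membrane that import folded enzymes from the cytosol. Peroxins insert the membrane proteins, carry enzymes in, and pull the import receptors back out for another round. The enzymes shorten very long-chain and branched fatty acids, start the synthesis of ether lipids such as plasmalogens, and release or remove hydrogen peroxide. Hepatocytes are rich in peroxisomes, where genes for fatty acid oxidation are known targets of the nuclear receptor PPARα, and adipocytes use them for lipid handling and ether lipid synthesis.

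In WAT, 5 of 16 peroxins were lower in Fnip2C/C mice and none was higher, and among the enzymes 10 of 32 were lower and 4 were higher (limma, adjusted p under 0.05 over 12798 genes). WAT differed widely between the genotypes, with 32.1% of all genes tested past the same threshold, 17.0% lower and 15.1% higher. The corresponding shares were 31.2% of the peroxins and 43.8% of the enzymes. The peroxins had a median log2 fold change of -0.01 (from -0.15 to 0.10 over the alternative settings, so without a stable sign), the enzymes one of -0.38 (from -0.47 to -0.24) and all genes one of 0.02. For 15 members every Fnip2C/C library lay below every Fnip2T/T library, and for 3 every library lay above, against 13.8% and 12.2% of all genes tested. Without mouse 593 the same 5 peroxins and 15 enzymes passed, beside 3746 of 12798 genes. In that fit Gnpat was lost, and Ech1 and Ephx2 were gained. A member can pass the minimum count through 1 genotype alone. This was so for Pex5, Pex2, Pex10, Ehhadh and Slc27a2, whose mean was under 10 in the other genotype, and the first 4 of these are among the members called. Among genes with a mean of at least 10 in both genotypes, 2 of 13 peroxins (15.4%) and 13 of 30 enzymes (43.3%) were called, beside 31.6% of 11808 genes.

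Adipocyte markers moved with the genotype in the same libraries. Of the 12 adipocyte markers 8 were lower in Fnip2C/C mice and none was higher, and their summed level was 29474 to 74351 CPM in Fnip2C/C and 63369 to 100901 in Fnip2T/T WAT. Of 6 endothelial markers 3 were lower. Hepatocyte markers, 4 of which passed the minimum count, were lower for 2, with a summed level of 58.5 to 299.985 in Fnip2C/C and 207 to 987 in Fnip2T/T WAT. Of 8 macrophage markers 1 was higher and 3 were lower, of 6 fibroblast markers 1 was higher and 1 lower, and of 5 smooth muscle markers 1 was higher and 1 lower. No tested marker of mesothelium (7), ovary (9), lymphocytes (1) or pancreas (1) was called. In such bulk samples fewer cells of a type cannot be told apart from less RNA per cell, and the part of cell composition in the results on WAT was not tested.

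**Figure D1:**
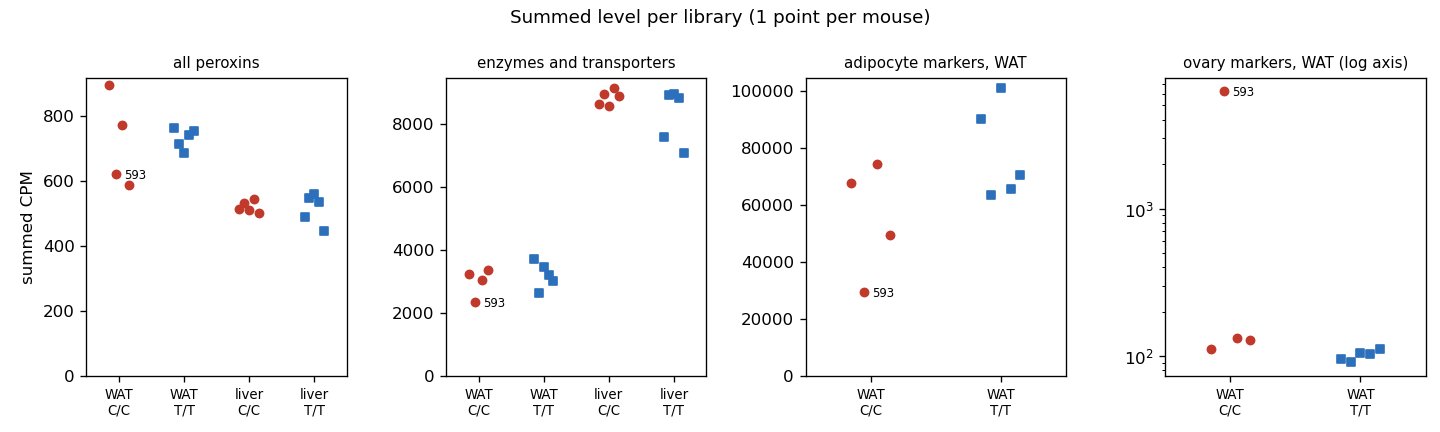
Summed level (CPM) of the 17 peroxins, the 38 enzymes and transporters, and, in WAT, of adipocyte and ovary markers (log axis for the last panel), with 1 point per mouse. All 12 adipocyte markers and 12 of 15 ovary markers had an entry in WAT. Peroxin sums overlap between genotypes in WAT, mouse 593 holds the lowest adipocyte sum (29474) and the highest ovary sum (6231), and enzyme sums are higher in every liver than in every WAT library.

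Summed over the members, the transcript levels of the genotypes overlapped. Such sums weigh each gene by its level and can hide opposite changes. In Fnip2T/T WAT the median was 295 CPM for Pex11a, which was not called, and 19.5 for Pex5. Crat had medians of 636 CPM in Fnip2C/C and 304 in Fnip2T/T WAT, and Cat had 287 and 588. The 17 peroxins together took 589 to 897 CPM in Fnip2C/C WAT and 688 to 766 in Fnip2T/T WAT. The 38 enzymes and transporters, 35 of which had an entry in WAT, took 2354 to 3352 and 2626 to 3717. In WAT the lowest enzyme sum was that of mouse 593.

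The largest difference among the peroxins was in Pex5, the cycling receptor that recognizes most peroxisomal enzymes in the cytosol. Its normalized count was 10.6, 3.7, 9.8 and 2.3 in the Fnip2C/C libraries and 80.4, 37.0, 29.0, 100.2 and 113.7 in the Fnip2T/T libraries. The genotypes did not overlap, with the lowest Fnip2T/T library, of mouse 609, at 29.0 and the highest Fnip2C/C library, of mouse 590, at 10.6. The means were 6.61 ± 4.17 (SD, n = 4) and 72.0 ± 37.7 (SD, n = 5), a ratio of 10.9, and the log2 fold change was -3.26 ± 0.49 (SE; limma, adjusted p = 0.0010). The exact two-sided permutation test gave p = 0.00794, the smallest value that 126 groupings of 9 libraries allow. Within Fnip2T/T the libraries of mice 608 and 609 were the lowest for Pex5, and also for Pex2, Pex10, Scp2 and Idh1, whose values follow. The same libraries had the lowest hepatocyte marker sums of this genotype, 207 and 237 CPM against 533 to 987. In Fnip2T/T WAT the markers of this list with the highest medians were Cyp2e1 (257 CPM), Pck1 (104) and Alb (38.3). Ass1, Apoa2, Ttr and Apoa1 had medians of 1.84, 0.847, 0.461 and 0.231 CPM there, and 2.06, 1.99, 0.236 and 1.26 in Fnip2C/C WAT. The sum therefore rests mainly on Cyp2e1, Pck1 and Alb. In Fnip2T/T livers the median of Alb was 66214 CPM. The part of the split among Fnip2T/T WAT libraries in the results was not tested. Pex7, the receptor for enzymes with a signal at their N terminus, had a log2 fold change of 0.32 (95% interval -0.16 to 0.79). Pex5l, a relative of Pex5 known from neurons, was at a mean of 4.25 and 4.45 and was not tested.

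Pex14 and Pex13 form the docking site for the loaded receptor at the membrane. Pex14 was at 50.6, 44.0, 53.1 and 35.1 in Fnip2C/C and at 96.0, 84.6, 100.5, 79.3 and 101.6 in Fnip2T/T WAT. All Fnip2C/C libraries lay below all Fnip2T/T libraries, at means of 45.7 ± 8.02 and 92.4 ± 9.91 (SD), and the log2 fold change was -1.01 ± 0.20 (SE; limma, adjusted p = 0.0033). Pex13 was at 41.2, 14.04, 30.3 and 44.5 against 84.5, 32.1, 53.6, 58.5 and 128.1. Here a single Fnip2T/T library, from mouse 608, fell within the Fnip2C/C range, and the log2 fold change of -1.08 ± 0.41 (SE) did not pass (limma, adjusted p = 0.058), but did with edgeR (-1.18, adjusted p = 0.046) and DESeq2 (-1.15, adjusted p = 0.027) on the recovered reads. With 1 mouse left out at a time the log2 fold change of Pex13 ran from -1.33 to -0.74. The value of -1.33, past the threshold with limma, came without mouse 608. Since that mouse was singled out by its value, this fit is not separate support. In 14 of 19 alternatives Pex13 was not called.

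Pex2 and Pex10 belong to the ubiquitin ligase ring that marks the receptor for recycling. Pex2 was at 2.4, 2.8, 5.4 and 0.0 in Fnip2C/C and at 31.2, 13.6, 7.8, 26.8 and 31.1 in Fnip2T/T WAT. The count of 0 among 4180209 reads, in mouse 638, allows a level of up to 0.718 CPM, and this limit covers counting error only. The groups did not overlap, and the log2 fold change was -2.77 ± 0.63 (SE; limma, adjusted p = 0.0059). Pex10 was at 3.5, 8.4, 5.4 and 4.7 against 26.3, 11.7, 12.3, 23.8 and 25.8, also without overlap, with a log2 fold change of -1.66 ± 0.42 (SE; limma, adjusted p = 0.011). The fold changes of these low counts are on the log2(value + 1) scale, which understates them.

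Pex19 is the chaperone that delivers new membrane proteins to Pex3. Its values were 287, 180, 292 and 173 in Fnip2C/C and 430, 317, 347, 491 and 412 in Fnip2T/T WAT. The ranges were separate, and the log2 fold change was -0.80 ± 0.21 (SE; limma, adjusted p = 0.013). Its membrane partners did not pass, with log2 fold changes of 0.27 (95% interval -0.26 to 0.79) for Pex3 and -0.01 (-0.46 to 0.44) for Pex16. Pex6, an ATPase that extracts the receptor, and its anchor Pex26 had log2 fold changes of 0.41 and 0.20, neither past the threshold. The same held for Pex11a and Pex11g, which shape and divide peroxisomes, at 0.25 and -0.01. By role, 1 of 2 import receptors tested, 1 of 2 docking proteins and 1 of 3 membrane assembly factors were lower, besides Pex2 and Pex10. The share of all genes that were lower was 17.0%. Pex5, Pex2 and Pex10 passed the minimum count through Fnip2T/T alone. Without them 0 of 1 import receptors and 2 of 13 peroxins were called (15.4%). On recovered reads edgeR and DESeq2 each called 6 peroxins in all, beside 4144 and 4722 of 12798 genes.

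**Figure D2:**
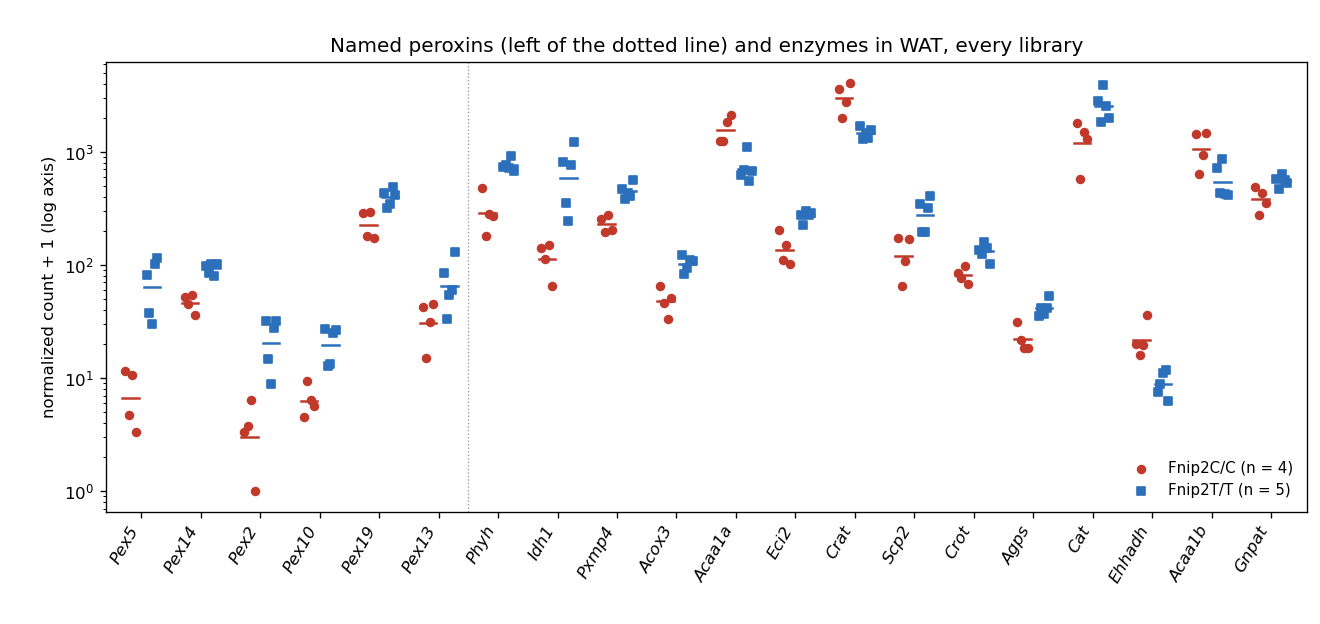
Normalized count plus 1 (log axis) in every WAT library of the 6 peroxins (left of the dotted line) and 14 enzymes with the lowest p, with red circles for Fnip2C/C (n = 4), blue squares for Fnip2T/T (n = 5) and bars at the geometric mean of count plus 1. Pex5, Pex2 and Pex10 have the largest log2 fold changes among the peroxins, and Acaa1a, Crat, Ehhadh and Acaa1b are the members that lie higher in Fnip2C/C.

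Among the enzymes, the α-oxidation step had the lowest p. Phyh hydroxylates phytanoyl-CoA, the first reaction in the breakdown of this branched fatty acid. It was at 479, 181, 281 and 267 in Fnip2C/C and at 729, 763, 720, 925 and 671 in Fnip2T/T WAT. There was a gap between the highest Fnip2C/C and the lowest Fnip2T/T library, and the log2 fold change was -1.41 ± 0.24 (SE; limma, adjusted p = 0.0015). Hacl1, the lyase that follows in the pathway, had means of 3.08 ± 1.77 and 14.8 ± 10.4 (SD) and stayed just under the minimum with a mean of 9.57 over all libraries. Slc27a2, an acyl-CoA synthetase, was just above it at 10.4.

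The β-oxidation genes moved both ways. The core steps are oxidation by acyl-CoA oxidases, hydration and dehydrogenation by Ehhadh or Hsd17b4, and cleavage by the thiolases Acaa1a and Acaa1b or by Scp2. Of 6 core genes tested 2 were lower and 3 were higher in Fnip2C/C mice, beside 17.0% and 15.1% of all genes tested. Among the higher genes, Ehhadh passed the minimum count through Fnip2C/C alone, and Acaa1b was called in only 14 of 19 alternatives. Without Ehhadh 4 of 5 core genes were called, beside 31.6% of genes with a mean of at least 10 in both genotypes. The oxidase Acox3 was at 63.5, 44.9, 32.5 and 50.4 against 120.6, 81.7, 92.7, 110.1 and 107.6, without overlap, a log2 fold change of -1.11 ± 0.23 (SE; limma, adjusted p = 0.0037). Scp2, whose locus encodes a thiolase for branched chains and a sterol carrier, was at 170.5, 63.6, 108.4 and 168.7 against 343.8, 192.6, 193.1, 316.3 and 403.9. Its groups were separate too, with a log2 fold change of -1.22 ± 0.31 (SE; limma, adjusted p = 0.012). However, 73.2% of the 50-base stretches in the last 500 bases of its transcript also occur in the pseudogene Scp2-ps2, so its count is uncertain.

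The genes that were higher include both forms of the straight-chain thiolase. Acaa1a was at 1243, 1235, 1821 and 2105 in Fnip2C/C and at 626, 690, 1111, 546 and 678 in Fnip2T/T WAT. All Fnip2C/C libraries were above the highest Fnip2T/T library, and the log2 fold change was 1.14 ± 0.24 (SE; limma, adjusted p = 0.0042). Acaa1b was at 1445, 633, 943 and 1469 against 717, 428, 856, 425 and 410, where mouse 593 fell among the Fnip2T/T values, with a log2 fold change of 0.97 ± 0.30 (SE; limma, adjusted p = 0.025) that was lost when any 1 of mice 590, 638, 608, 657 and 658 was left out (0.82 to 0.89, adjusted p up to 0.080). The 3′ ends of these neighbours are near copies, with 42.1% of the 50-base stretches of Acaa1a found in Acaa1b, and reads may be split between them. Ehhadh, the bifunctional enzyme of the pathway, was low in WAT, at 18.8, 15.0, 18.4 and 35.1 against 6.6, 7.8, 10.05, 10.9 and 5.3. The genotypes did not overlap, and its log2 fold change was 1.29 ± 0.38 (SE; limma, adjusted p = 0.023). Without mouse 638 it was 1.05 (adjusted p = 0.083) and without mouse 658 it was 1.17 (adjusted p = 0.050), past the threshold in neither. Hsd17b4, which carries out the same 2 steps for branched and very long chains, had a log2 fold change of 0.05 (95% interval -0.45 to 0.55). Acox2 was not tested, at means of 3.65 and 4.47.

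Auxiliary enzymes bring unsaturated and branched chains into the pathway. Eci2, an isomerase that moves double bonds, was at 201, 109, 149 and 101 in Fnip2C/C and at 272, 224, 299, 273 and 286 in Fnip2T/T WAT. The groups were separate, with a log2 fold change of -0.998 ± 0.212 (SE; limma, adjusted p = 0.0043). In all, 7 of the 55 members share a 50-base stretch of their 3′ end with another gene, Eci2 (9.76%, with Eci3), Decr2 (11.1%), Abcd4 (16.2%) and Acot4 (1.11%) besides the thiolases. The other 3 tested did not pass, at log2 fold changes of -1.08 for Decr2, -0.36 for Pecr and 0.49 for Ech1. Decr2 varied widely among Fnip2T/T libraries, from 25.7 to 206.9, and its interval ran from -2.27 to 0.10. The racemase Amacr was under the minimum, at means of 0.564 and 6.81.

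Shortened acyl chains leave the organelle as carnitine esters, and here the transferases for short and medium chains went in opposite directions. Crat, carnitine acetyltransferase, was at 3555, 1981, 2740 and 4063 in Fnip2C/C and at 1686, 1296, 1456, 1309 and 1561 in Fnip2T/T WAT. Each Fnip2C/C library was above each Fnip2T/T library, and the log2 fold change was 1.03 ± 0.22 (SE; limma, adjusted p = 0.0047). Crot, carnitine octanoyltransferase, was at 83.5, 74.9, 96.5 and 66.8 against 134.6, 124.5, 158.5, 140.8 and 100.8. It lay lower in Fnip2C/C without overlap, at a log2 fold change of -0.70 ± 0.19 (SE; limma, adjusted p = 0.015). Crat is also found in mitochondria. The other 5 genes of this group, which hydrolyse CoA esters or CoA itself or decarboxylate malonyl-CoA, had log2 fold changes from -0.71 for Acot4 to 0.01 for Nudt7 and were not called. For Acot4 the libraries of the genotypes did not overlap, and the limma adjusted p was 0.067.

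Ether lipid synthesis starts in the peroxisome with Gnpat and Agps, and Far1 supplies the fatty alcohol. All 3 had negative values, and the first 2 were called. Agps was at 30.6, 20.6, 17.3 and 17.6 in Fnip2C/C and at 34.5, 40.9, 35.7, 40.7 and 52.3 in Fnip2T/T WAT, without overlap, a log2 fold change of -0.91 ± 0.26 (SE; limma, adjusted p = 0.020) that was lost without mouse 599 (-0.83) or mouse 658 (-0.82). Gnpat was at 482, 276, 434 and 355 against 574, 470, 630, 557 and 533, where the ranges overlapped through mouse 590 and mouse 608. Its log2 fold change of -0.54 ± 0.19 (SE) was near the threshold (limma, adjusted p = 0.044) and was lost in 10 of 19 alternatives, among them the fit without mouse 593 (-0.39). Far1 had a log2 fold change of -0.60 (95% interval -1.18 to -0.02; limma, adjusted p = 0.10).

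Of the redox enzymes, catalase and the cytosolic and peroxisomal isocitrate dehydrogenase Idh1, a source of NADPH, were both lower. Cat was at 1809, 577, 1483 and 1299 in Fnip2C/C and at 2832, 1838, 3908, 2527 and 1992 in Fnip2T/T WAT. The highest Fnip2C/C and the lowest Fnip2T/T library were close but did not overlap, and the log2 fold change was -1.08 ± 0.32 (SE; limma, adjusted p = 0.022). Idh1 was at 141.1, 111.4, 149.6 and 64.4 against 807.5, 352.2, 245.6, 769.5 and 1220.9. It had the largest fall among the enzymes, with a log2 fold change of -2.38 ± 0.42 (SE; limma, adjusted p = 0.0020) and a ratio of means of 5.82. The epoxide hydrolase Ephx2 had a log2 fold change of -0.47 (95% interval -1.10 to 0.16). Hao1, Agxt and Pipox, enzymes of glyoxylate and amino acid breakdown in hepatocytes, had no entry in the WAT table.

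Among 7 transporters and membrane proteins 1 was called (14.3%), beside 32.1% of all genes. Pxmp4, a membrane protein, was at 252.9, 195.6, 276.4 and 202.6 in Fnip2C/C and at 468.6, 384.3, 429.8, 405.6 and 564.6 in Fnip2T/T WAT, with no overlap and a log2 fold change of -0.96 ± 0.18 (SE; limma, adjusted p = 0.0024). The ABC transporters Abcd2, Abcd3 and Abcd4 had log2 fold changes of -0.37, -0.11 and -0.71, the carrier Slc25a17 one of 0.42, and the channel protein Pxmp2 one of 0.15. Slc27a2 had 0.9 to 48.0 among Fnip2C/C libraries, and its interval ran from -0.88 to 3.18. The peroxisomal protease Lonp2 had a log2 fold change of -0.18 (-0.56 to 0.20).

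**Figure D3:**
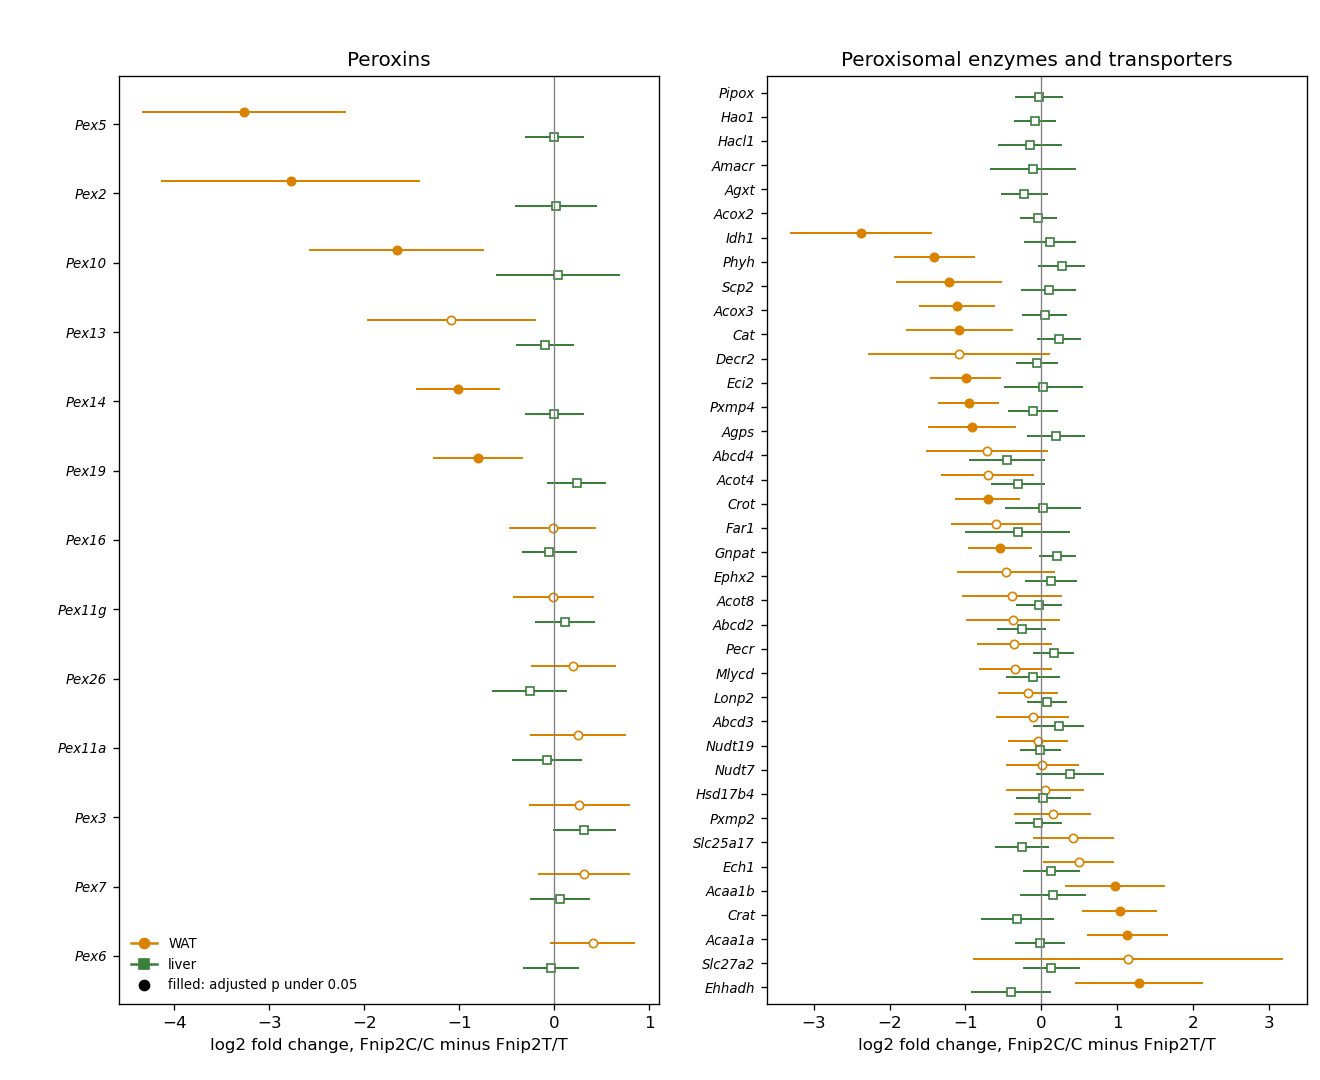
Log2 fold change (Fnip2C/C minus Fnip2T/T) with its 95% interval for the members tested and reported here, in WAT (orange circles) and liver (green squares), with filled symbols where the adjusted p was under 0.05. The 19 filled symbols are all in WAT, and the liver values stay between -0.45 and 0.37.

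In liver no member differed between the genotypes at the threshold. None of 54 members was called by limma, by edgeR or by DESeq2, and none had an unadjusted limma p under 0.05. Over all 11710 genes tested in liver 0.0% were called, and 1.97% had an unadjusted p under 0.05. No member had separate ranges in the genotypes, against 0.248% of all genes. The 95% intervals of all 54 members lay within 1 on the log2 scale in either direction, that is, within a 2-fold change. For the 19 members called in WAT the liver intervals reached no lower than -0.92 and no higher than 0.68. Median log2 fold changes were 0.01 for the peroxins and -0.01 for the enzymes, beside 0.01 for all genes.

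Of the peroxins in liver, Pex3, the membrane anchor for Pex19, had the lowest p. It was at 111.8, 151.1, 101.2, 144.9 and 118.3 in Fnip2C/C and at 79.2, 93.7, 113.4, 104.3 and 109.5 in Fnip2T/T livers, with ranges that overlapped and a log2 fold change of 0.32 (95% interval -0.000772 to 0.64; exact permutation p = 0.0714). Pex19 was at a log2 fold change of 0.24. Among the enzymes Abcd4 was at 35.2, 59.7, 28.3, 41.4 and 49.6 against 36.8, 63.1, 56.1, 83.5 and 55.7, a log2 fold change of -0.45 (-0.94 to 0.03). Phyh, low in Fnip2C/C WAT, was at 8173, 8517, 6508, 8630 and 8329 in Fnip2C/C and at 5505, 7215, 7342, 8096 and 5460 in Fnip2T/T livers, a log2 fold change of 0.27 (-0.03 to 0.56). Gnpat, lower in Fnip2C/C WAT, had a positive log2 fold change of 0.21 in liver, with an exact permutation p of 0.0159 that is not adjusted for the 54 members tested and a limma adjusted p of 1.00. The next were Acot4 at -0.31, Nudt7 at 0.37 and Abcd2 at -0.26, none past the threshold. Pex5, the peroxin with the largest fall in WAT, had liver means of 303 ± 41.0 and 305 ± 59.4 (SD, n = 5 each) and a log2 fold change of 0.00 (-0.30 to 0.31). Pex2 was at 46.2 ± 8.26 and 46.2 ± 11.1.

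Whether the genotype effect differed between the tissues was tested as the effect in WAT minus the effect in liver, over all 19 libraries and the 10404 genes kept in both tables. This test uses the same WAT libraries as the comparison above and is not separate evidence for it. It was passed by 17 of 48 members, or 35.4%, beside 29.2% of all genes. They were the 5 peroxins called in WAT and 12 enzymes. Among them Pex5, Pex2, Pex10 and Ehhadh passed the minimum count in WAT through 1 genotype alone. The shares without such genes were not computed for this test, so 35.4% is not read as an excess. The difference was -3.27 ± 0.51 (SE) for Pex5, -2.79 ± 0.59 for Pex2, -1.69 ± 0.48 for Pex10, -1.04 ± 0.26 for Pex19 and -1.01 ± 0.23 for Pex14 (limma adjusted p between 0.00021 and 0.012). Enzymes with a negative difference were Idh1 (-2.49), Phyh (-1.68), Cat (-1.31), Scp2 (-1.31), Acox3 (-1.16), Agps (-1.11), Eci2 (-1.03), Pxmp4 (-0.85) and Gnpat (-0.75). Those with a positive difference were Ehhadh (1.69), Crat (1.35) and Acaa1a (1.15). The enzymes Crot (-0.73, limma adjusted p = 0.072) and Acaa1b (0.82, limma adjusted p = 0.11), called in WAT, did not pass this test. With the mouse as a block, since 6 mice gave both tissues, 17 members passed as well.

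The tissues also differed in how much of each transcript they held. These levels (CPM, within each table) are given without a test, because the tables were normalized separately and tissue and RNA input cannot be told apart. In Fnip2T/T mice 4 of 16 peroxins and 14 of 32 enzymes were higher in every liver than in every WAT library, beside 10.9% of all genes kept in both tables. In turn 5 peroxins and 5 enzymes were lower in every liver, beside 49.2% of all genes. The medians of the liver to WAT ratio were 1.05 for peroxins and 1.42 for enzymes. In Fnip2C/C mice Pex5 was at a median of 1.45 CPM in WAT and 41.2 in liver.

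The 14 enzymes higher in every liver included Abcd3, Pxmp2, Mlycd, Ephx2, Scp2, Ehhadh and Acot4 besides those with values here, while Acaa1a, Acox3, Hsd17b4, Ech1, Eci2 and Nudt7 overlapped between the tissues. The median of Cat was 2008 CPM in liver and 588 in WAT of Fnip2T/T mice, and that of Phyh was 1079 and 166. Acaa1b was at 793 and 98.9, Crot at 276 and 32.5, Pecr at 213 and 18.7, and Decr2 at 291 and 15.7. Slc27a2 was at 195 in liver and 0.922 in WAT. Among the peroxins Pex11g, Pex5, Pex7 and Pex14 were higher in every liver, with ratios of 2.63, 2.40, 2.06 and 1.71.

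The 5 enzymes lower in every liver were Crat, Abcd2, Gnpat, Far1 and Agps. Crat was at 304 CPM in WAT and 21.3 in liver, Abcd2 at 217 and 32.8, Gnpat at 129 and 31.6, and Far1 at 13.1 and 2.69. Agps was at 8.89 and 6.09. The peroxins Pex11a (295 and 94.5), Pex3 (51.0 and 15.3), Pex16 (99.5 and 58.5) and Pex19 (86.7 and 55.3) were also lower in every liver than in every WAT library.

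**Figure D4:**
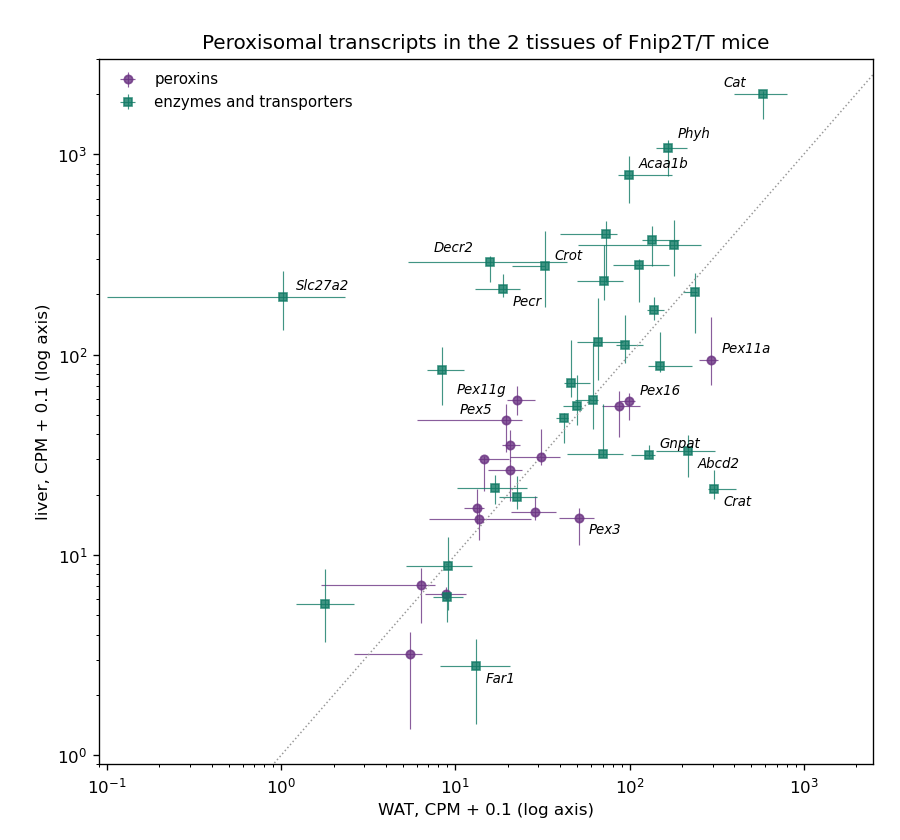
Median level (CPM plus 0.1) in WAT (x axis) and liver (y axis) of Fnip2T/T mice, both on log axes, for the 48 members kept in both tissues, with bars from the lowest to the highest of 5 libraries. Members above the dotted line of equality, such as Cat, Phyh and Slc27a2, have the higher level in liver, and those below it, such as Crat, Abcd2, Gnpat and Pex11a, in WAT.

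Promoters were searched for a pair of motifs, since genes of peroxisomal oxidation are known PPARα targets and CACGTG is bound by helix-loop-helix factors such as TFEB. RefSeq promoter sequences (250 bases before to 50 after the start, GRCm38.p6) were at hand for 42 of the 55 members. The first motif was DR1, 2 copies of AGGTCA that are 1 base apart, searched on both strands with up to 2 mismatches. It was found in 3 members, or 7.14%, beside 4.40% of all genes in the table and 3.41% of the genes tested in WAT. CACGTG, which reads the same on both strands, was found in 3 members, or 7.14%. The share was 8.09% among all genes and 11.8% among the genes tested in WAT. The windows of the members with a match are printed, to be set beside the values above, with the matched bases in capitals, 5′ to 3′ on the strand of the gene.
Cat DR1 (chr2:103485336-103485365, minus strand): actctcagAGGTCAGAGAACAccagcaggg
Acox2 DR1 (chr14:8258809-8258838, minus strand): gctgtcccAGGACAGAGGTGAgtcaagagt
Acot4 DR1, on the other strand (chr12:84038358-84038387, plus strand): ccgaagcaTGACCTTTGGCCGgtctgtgcc
Acot4 CACGTG (chr12:84038301-84038330, plus strand): ctttcacaacacCACGTGggagtggcgaga
Gnpat CACGTG (chr8:124862797-124862826, plus strand): gctccaggagacCACGTGggccgtggtccc
Lonp2 CACGTG (chr8:86651477-86651506, plus strand): acttcgtgcagtCACGTGgcacagttgagg
Of these, Cat and Gnpat were lower in Fnip2C/C WAT, Acot4 and Lonp2 were not called, and Acox2 was not tested there. None of 11 peroxins with a sequence held either match in its window. A match of letters does not show that a factor binds.

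Other genes of the pathway were read from lists, whose counts stand beside 17.0% lower and 15.1% higher among all genes tested in WAT. Of 10 PPAR receptors and partners tested in WAT 1 was called, the coactivator subunit Med1, which was higher (log2 fold change 0.55 ± 0.15, SE). The corepressor Nrip1 (0.47, limma adjusted p = 0.055), Ppara (0.94, 95% interval -0.09 to 1.97), Pparg (0.39, -0.20 to 0.97) and the coactivator Ppargc1a (-0.08, -1.11 to 0.95) did not pass. Of 12 PPAR targets outside the peroxisome 3 were lower, namely Aqp7 (-1.80), Angptl4 (-1.25) and Fabp4 (-1.09), and Aqp7 and Fabp4 are also on the adipocyte list. Of 11 genes of peroxisome fission, tethering and turnover 4 were lower (36.4%) and 2 higher (18.2%), with the lowest p for the fission adaptor Mff (-1.27 ± 0.24) and the tether Vapb (-0.76 ± 0.17). Of 14 further peroxisomal enzymes 6 were lower (42.9%) and 1 was higher, led by Hsdl2 (-1.30 ± 0.21) and the membrane protein Mpv17 (-1.68 ± 0.33). Mitochondrial β-oxidation, the neighbouring route for shorter chains, was split, with 4 of 18 lower and 4 higher (22.2% each way). Its lowest p were those of the carnitine carrier Slc25a20 (-1.79 ± 0.27) and Acad11 (-1.24 ± 0.24). Of 5 genes for the later steps of ether lipid assembly 1 was lower and 1 higher. Cept1, which joins the head group to the lipid, was lower at -3.14 ± 0.43, and Pcyt2, which supplies it, was higher at 0.77 ± 0.18. Cept1 passed the minimum count through Fnip2T/T alone, at means of 9.10 in Fnip2C/C and 92.2 in Fnip2T/T WAT. Without Cept1, 1 of 4 genes of this list was called (25.0%). The medians over these lists ran from -0.63 to 0.43.

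In liver none of the genes of these lists was called by limma, and 1 had an unadjusted p under 0.05. This was Acad10 of mitochondrial β-oxidation, at a log2 fold change of 0.29 (95% interval 0.02 to 0.56). The 2 genes with the lowest p in each list otherwise were Ppargc1a (0.29) and Rxrb (0.13), Acot1 (-0.67) and Angptl4 (1.40), Acbd5 (0.14) and Mff (0.13), Acot3 (-0.65) and Ddo (0.23), Acadl (-0.10), and Cept1 (0.18) and Tmem189 (0.17). Angptl4 varied most among them, with an interval from -0.76 to 3.56. Ppara had a log2 fold change of -0.05 (-0.57 to 0.48) and Pparg one of 0.23 (-0.62 to 1.09).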

How the data were processed

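Per the labels, 76 run samples stand for 19 libraries (1 per mouse and tissue, 4 runs each). The authors deposited 1 table per tissue of signal values, which are gene read counts divided by a size factor per library. The submitters' processing notes name FastQC 0.11.9, HISAT2, SAMtools 1.12, HTSeq, DESeq2 and GRCm39. Whole reads could be recovered for 100% of the values. The number of columns that no label describes was 1, and it was not used.

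Log2(value + 1) of genes with a mean of at least 10 was fitted per tissue with limma 3.58.1 (R 4.3.3; eBayes with trend and robust options), Fnip2C/C minus Fnip2T/T, with Benjamini-Hochberg adjustment over all genes and a threshold of 0.05. The fit was tested on simulated data. Single members were also compared by exact two-sided permutation of libraries. Alternatives included edgeR 4.0.16 (TMM) and DESeq2 1.42.0 on recovered reads. The mouse pairs the tissues by origin, and residuals of the same mouse correlated between -0.20 and 0.16. Reads are not independent molecules.

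The members, lists and tests were chosen with earlier results of these data known. Every member called in WAT is named, with values in every library for the 6 peroxins and 14 enzymes with the lowest p, and in liver the 3 peroxins and 6 enzymes with the lowest p, with values for the 3 lowest. Some members are counted but their own values are not reported here. Of the other lists the 2 genes with the lowest p in each tissue are named, besides Ppara, Pparg and Ppargc1a, and Angptl4 and Fabp4 as the rest of a count of 3.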

Additional observations from a re-analysis of the deposited data

Results flagged for a closer look

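For 17 members the effect of genotype differed between WAT and liver in the interaction test (limma, adjusted p under 0.05). The effect in WAT minus that in liver was, on the log2 scale, -3.27 for Pex5, -2.79 for Pex2, -2.49 for Idh1, -1.69 for Pex10, -1.68 for Phyh, -1.31 for Cat, -1.31 for Scp2, -1.16 for Acox3, -1.11 for Agps, -1.04 for Pex19, -1.03 for Eci2, -1.01 for Pex14, -0.85 for Pxmp4 and -0.75 for Gnpat. It was 1.69 for Ehhadh, 1.35 for Crat and 1.15 for Acaa1a. Pex5, Pex2, Pex10 and Ehhadh had a WAT mean under 10 in 1 genotype.

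In 3 of the 58 groups of libraries examined, all in Fnip2C/C livers, 1 library stood apart from the rest of its group by a gap test on log2 values, and chance flags about 1 in 20 groups. Mouse 592 had the lowest Phyh (normalized count 6508) and the highest Acot4 (557.0). Mouse 639 had the highest Nudt7 (1341).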

How the results depend on the processing

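Of the 19 members called in WAT, 15 were called in every alternative that tested them. No log2 fold change changed sign among the 20 members in WAT and 9 in liver with the lowest p, for which the alternatives were computed. These were chosen by p in the same libraries, so a kept sign was likely for them, and the other members were not covered. The median over the peroxins in WAT ran from -0.15 to 0.10 and that over the enzymes from -0.47 to -0.24. The members called in WAT but not in every alternative were Gnpat (called in 9 of 19), Acaa1b (14 of 19), Agps (16 of 18) and Ehhadh (16 of 18). With a minimum mean of 50, 2 peroxins were called, since Pex5, Pex2 and Pex10 are then not tested. In the other alternatives 5 to 7 peroxins and 10 to 16 enzymes passed. With each mouse left out in turn these counts were 5 to 7 and 10 to 15, with the fewest enzymes (10) without Fnip2T/T mouse 658. In liver the count of members called was 0 in every alternative. The number of members whose effect differed between tissues ran from 12 to 21, and from 16 to 20 with each mouse left out. The mouse as a replicate block gave 17 and changed no call among the members. Without Fnip2C/C mouse 638 the difference between tissues of Eci2 was -0.89 and did not pass, and the cause was not tested. Counts near the minimum, as for Pex2 and Pex5 in Fnip2C/C WAT, rest on few reads.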
